A study of Homo sapiens with 8 samples.

Results

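The genes described here are 8 members of the MYC transcription factor network (MYC, MAX, MXD1, MXD3, MXD4, MXI1, MNT and MLX), together with MYCBP, which encodes a small protein that binds MYC, and RRAGC, the gene next downstream of MYCBP. These are 10 of the 78932 genes in the deposited tables. All 10 passed the filter on low counts, which left 12618 genes for testing. MYCBP was selected on its steep fall in CPM in this same comparison, so its values are given as a description and without a test. The other 9 were listed for what they encode or where they lie, with earlier results of these data known.

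RNA came from HCT116, a human colorectal cancer cell line, in which NUDT21 carries a degradation tag (dTAG). NUDT21 is the small subunit of cleavage factor Im, which binds UGUA motifs in nascent RNA upstream of poly(A) sites. Both groups were given JTE-607, which blocks the endonuclease CPSF73 and with it the cutting of pre-mRNA at poly(A) sites. In the first group JTE-607 came with DMSO, the solvent control (4 libraries), and in the second with dTAGV1, a degrader that leads proteins with the tag to the proteasome (4 libraries). Doses, times, the parental line without a tag and whether the tagged line is a single clone are not given in the labels, and cells without JTE-607 were not analysed here. Nothing says that the libraries of a group came from separate cultures, so p-values measure the spread between these libraries, which may be technical. The comparison asks how RNA levels differ when NUDT21 is targeted for degradation while cleavage is inhibited.

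Libraries held 3447842 to 4291256 reads counted to genes on the sense strand. RNA of NUDT21 itself fell from 32.2 ± 2.81 to 8.25 ± 2.62 CPM (counts per 1000000, mean ± SD, n = 4 each), without overlap between the groups (log2 fold change -1.95; edgeR, Benjamini-Hochberg adjusted p = 1.36e-09). The degrader acts on the tagged protein, which was not measured here, so this fall does not show how far NUDT21 protein was depleted. Of 8 epithelial markers, 8 had counts, with sums of 1580 to 1830 CPM with DMSO and 1260 to 1350 CPM with dTAGV1, although VIL1 had only 6 counts over all libraries. The 6 stromal markers summed to 16.9 to 30.9 CPM, with COL3A1 and DCN at 0, and the 6 blood cell markers to at most 1.98 CPM. The epithelial sum was lower in every dTAGV1 library, but its members did not move alike. The keratins KRT18 and KRT19 fell (log2 fold changes -0.60 and -0.65), the adhesion protein EPCAM rose (0.28; these 3 by edgeR, Benjamini-Hochberg adjusted p of 5.14e-08 to 0.00282), and KRT8 (-0.38), CDX2 (-0.21) and CDH1 (0.02) did not pass. Their part in the results below was not tested. In these bulk libraries, fewer cells that express a gene and less of its RNA per cell cannot be told apart.

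MYC is a basic helix-loop-helix leucine zipper protein that binds DNA only as a pair with MAX, at E-boxes of the sequence CACGTG, and is known for raising the transcription of genes for ribosome production, metabolism and the cell cycle. MXD1, MXD3, MXD4, MXI1 and MNT compete for MAX and recruit repressors to the same E-boxes. MLX is a parallel partner, shared by some of these repressors and by the glucose sensors MondoA (MLXIP) and ChREBP (MLXIPL). RRAGC encodes RagC, a GTPase that helps to bring the growth kinase mTORC1 to the lysosome when amino acids are plentiful.

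MYCBP and RRAGC lie one after the other on the minus strand of chromosome 1 (GENCODE 29 on GRCh38, counted from 1). MYCBP (ENSG00000214114) spans 38862964 to 38874105, RRAGC (ENSG00000116954) spans 38838198 to 38859823, and both are protein-coding. The gap between the end of MYCBP and the start of RRAGC is 3140 bases. Counting reads at RNA 3′ ends makes the end of each gene the part that is measured. The stretches below hold the last AATAAA poly(A) signal of the longest annotated coding transcript of each gene, in capitals, 5′ to 3′.
MYCBP: agaccattatAATAAAgcatggccccgtga
RRAGC: aatgggtatcAATAAAtgtatttactccaa
The signal starts 35 bases before the annotated end in MYCBP and 22 bases before it in RRAGC. Within the last 100 bases each of these transcripts holds 1 TGTA, the DNA form of the UGUA motif. Of 10641 tested genes with a coding transcript, 56.3% hold at least 1 in that window and 22.1% at least 2. Among the other members, MAX and MXD1 have 3, MXI1 has 2, MXD4, MNT and MLX have 1, and MYC and MXD3 have 0. These letters are a description of the annotated ends, and which ends were used in these cells was not measured here.

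The promoter windows of both neighbours are shown because the network's own motif, CACGTG, is in only one of them. RefSeq windows run from 250 bases before to 50 bases after the start site on GRCh38.p14, minus strand, chr1:38873329-38873628 for MYCBP and chr1:38859723-38860022 for RRAGC, with CACGTG in capitals.
MYCBP: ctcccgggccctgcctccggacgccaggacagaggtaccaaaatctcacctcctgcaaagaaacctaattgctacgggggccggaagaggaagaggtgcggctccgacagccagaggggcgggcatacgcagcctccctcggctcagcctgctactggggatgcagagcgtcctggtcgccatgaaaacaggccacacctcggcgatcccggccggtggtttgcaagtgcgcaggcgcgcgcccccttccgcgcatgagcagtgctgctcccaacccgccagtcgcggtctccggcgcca
RRAGC: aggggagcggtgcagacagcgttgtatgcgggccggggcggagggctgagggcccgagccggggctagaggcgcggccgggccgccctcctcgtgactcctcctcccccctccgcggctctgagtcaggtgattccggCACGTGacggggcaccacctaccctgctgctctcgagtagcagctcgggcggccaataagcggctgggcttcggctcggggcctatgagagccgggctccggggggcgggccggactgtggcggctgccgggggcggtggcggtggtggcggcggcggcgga
Windows were matched for 9 of the 10 members, and 4 of these 9 genes hold CACGTG, which reads the same on both strands. Of all 35116 windows 7.26% hold it, and of 9232 tested genes with a window 12.6% do. The other 3 sites are in MXD4, MNT and MLX, at 238, 193 and 50 bases before the start site, and are shown with the bases around them.
MXD4: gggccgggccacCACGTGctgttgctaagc
MNT: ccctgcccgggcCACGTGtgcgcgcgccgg
MLX: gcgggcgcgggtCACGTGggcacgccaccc
They lie at chr4:2262330-2262359 (minus strand), chr17:2401236-2401265 (minus strand) and chr17:42567038-42567067 (plus strand). A match is not a measured binding site, and no binding was measured here.

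Reads counted to MYCBP were far fewer with dTAGV1, while those counted to RRAGC rose. MYCBP had 40, 73, 54 and 68 counts in DMSO replicates 1 to 4 and 4, 1, 3 and 7 counts in dTAGV1 replicates 1 to 4. The lowest DMSO library held several times the counts of the highest dTAGV1 library, so the groups were far apart. The DMSO mean was 14.9 ± 3.00 CPM and the dTAGV1 mean 0.994 ± 0.562 CPM (SD, n = 4 each). The fitted log2 fold change was -3.82 (SE, the standard error, 0.32), and 0.111% of the tested genes had a lower one. This rank follows from the selection of MYCBP on its fall and is no support for it. From the 235 and 15 counts of the groups, the ratio of DMSO over dTAGV1 was 14.5, with an exact 95% interval of 8.63 to 26.4. That interval covers counting error only, not the spread between libraries or the selection.

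RRAGC had 77, 83, 82 and 99 counts with DMSO and 118, 115, 85 and 139 with dTAGV1. In CPM it ran from 20.0 to 24.5 with DMSO and from 25.0 to 34.7 with dTAGV1, so that the groups did not overlap, with dTAGV1 replicate 3 nearest to the controls. RRAGC rose from 21.9 ± 1.91 to 31.5 ± 4.39 CPM (SD, n = 4 each; log2 fold change 0.53, SE 0.13; edgeR, Benjamini-Hochberg adjusted p = 0.0016). MYCBP made up 40.4% ± 5.17 of the counts of both genes together with DMSO (34.2% to 46.8%) and 3.09% ± 1.63 with dTAGV1 (0.862% to 4.80%; SD, n = 4 each). This share restates the fall on which MYCBP was selected and is no support for it.

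Annotation around the pair bears on what was counted. GJA9-MYCBP, a coding readthrough gene, shares 977 of the 3039 exonic bases of MYCBP, and the noncoding AL139260.2, which spans all of MYCBP and most of RRAGC, shares 645 of them and 1183 of the 5167 exonic bases of RRAGC. These overlapping genes had 0 counts in all 8 libraries, as had GJA9. The tables have the layout of STAR, whose gene counting leaves out reads in bases that several genes share. The last 500 exonic bases of the longest coding transcript of MYCBP and of RRAGC are shared with no annotated gene on either strand. MYCBP has 2 annotated coding 3′ ends, and only the end of that transcript was checked. Reads at an end within shared bases would go uncounted, and whether the groups differ in the ends used was not tested. RRAGC-DT, a noncoding gene on the other strand, starts 177 bases from RRAGC, spans all of MYCBP and shares 138 exonic bases with it. It had 16 counts with DMSO and 35 with dTAGV1 and was below the filter.

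**Figure D1:**
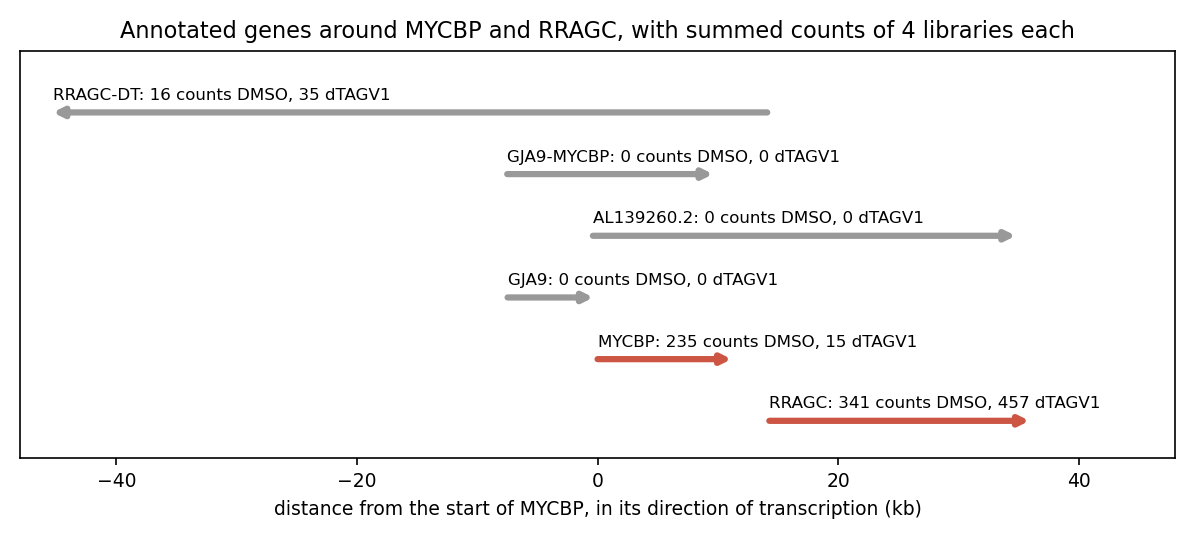
Arrows show annotated genes around MYCBP and RRAGC to scale, pointing in the direction of transcription, against the distance from the start of MYCBP in kb, with the summed sense counts of the 4 libraries of each group. MYCBP went from 235 to 15 counts and RRAGC from 341 to 457. The overlapping genes GJA9-MYCBP and AL139260.2 on the same strand had 0, and RRAGC-DT, which overlaps MYCBP on the other strand, went from 16 to 35.

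Of 13 other genes listed around the pair, 9 were tested and moved both ways: 3 rose, 3 fell and 3 did not pass, near the shares of all tested genes that were higher (29.4%), lower (28.5%) or called at all (57.9%). MACF1, a cytoskeletal linker, rose from 434 ± 11.7 to 635 ± 13.4 CPM (log2 fold change 0.55). INPP5B, an inositol phosphatase, had a log2 fold change of 0.55 and MTF1, a metal-responsive transcription factor, had 0.27. AKIRIN1, a nuclear regulator of transcription, fell from 73.9 ± 5.32 to 46.4 ± 7.89 CPM (log2 fold change -0.67). The respiratory chain subunit NDUFS5 had a log2 fold change of -0.27 and UTP11, a ribosome assembly factor, had -0.29 (these 6 by edgeR, Benjamini-Hochberg adjusted p of 7.5e-08 to 0.0101). FHL3, SF3A3 and YRDC did not pass, at -0.36, -0.10 and 0.21. RHBDL2 had 10 counts and POU3F1 17 counts in all. Without DMSO replicate 3, UTP11 had a log2 fold change of -0.21 and was not called (edgeR adjusted p = 0.0691), and without dTAGV1 replicate 1 FHL3 had -0.64 and was called (edgeR adjusted p = 0.0231). On counts irrespective of strand the value of INPP5B was 1.86.

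MYC RNA fell with dTAGV1. MYC (ENSG00000136997; chromosome 8, 127735434 to 127741434, plus strand, protein-coding) had 65.3, 53.1, 62.4 and 71.5 CPM in DMSO replicates 1 to 4 and 33.2, 49.8, 37.4 and 42.1 CPM in dTAGV1 replicates 1 to 4. Every dTAGV1 library was below every DMSO library, with dTAGV1 replicate 2 closest to DMSO replicate 2. The means were 63.1 ± 7.66 and 40.6 ± 7.14 CPM (SD, n = 4 each; log2 fold change -0.63, SE 0.12; edgeR, Benjamini-Hochberg adjusted p = 6.61e-05). No annotated gene shares exons with MYC.

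MAX, the obligate partner, did not pass the test. MAX (ENSG00000125952; chromosome 14, 65006174 to 65102695, minus strand, protein-coding) ran from 103 to 126 CPM with DMSO and from 103 to 113 CPM with dTAGV1, and the groups overlapped. Its log2 fold change was -0.07 (SE 0.08; edgeR, Benjamini-Hochberg adjusted p = 0.484). MAX and MLX had the highest levels of the network with DMSO, at 112 ± 9.60 and 108 ± 5.71 CPM.

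Among the 5 MAX-binding repressors, 3 rose and 2 did not pass, where 29.4% of all tested genes were higher. MXD4 (ENSG00000123933; chromosome 4, 2247432 to 2262294, minus strand, protein-coding) had 50.6, 51.9, 62.4 and 59.1 CPM with DMSO and 74.3, 76.1, 66.3 and 66.7 CPM with dTAGV1. Its groups did not overlap, and the log2 fold change was 0.34 (SE 0.10; edgeR, Benjamini-Hochberg adjusted p = 0.00458). MXI1 (ENSG00000119950; chromosome 10, 110207605 to 110287365, plus strand, protein-coding) had 45.1, 48.5, 54.4 and 51.7 CPM with DMSO and 54.7, 58.6, 70.1 and 66.0 CPM with dTAGV1. The highest DMSO library and the lowest dTAGV1 library of MXI1 were almost equal, though they did not cross. Its log2 fold change was 0.32 (SE 0.10; edgeR, Benjamini-Hochberg adjusted p = 0.00951), and without dTAGV1 replicate 3 it was 0.25 and not called (edgeR adjusted p = 0.0612).

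MXD1 (ENSG00000059728; chromosome 2, 69897688 to 69942945, plus strand, protein-coding) is the repressor classically linked to differentiation. It had 13.7, 17.4, 20.0 and 12.4 CPM with DMSO and 19.6, 31.1, 19.4 and 23.7 CPM with dTAGV1. Unlike in MXD4, the groups overlapped, since DMSO replicate 3 lay above dTAGV1 replicates 1 and 3. MXD1 rose (log2 fold change 0.56, SE 0.18; edgeR, Benjamini-Hochberg adjusted p = 0.00836), but without dTAGV1 replicate 2, its highest library, the value was 0.39 and was not called (edgeR adjusted p = 0.0646). MXD1 shares 237 exonic bases with SNRNP27 on the same strand, none of them in the last 500.

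MNT and MXD3 had lower means with dTAGV1 but did not pass. MNT (ENSG00000070444; chromosome 17, 2384060 to 2401118, minus strand, protein-coding), the most widely expressed of the repressors, ran from 20.3 to 24.9 CPM with DMSO and from 16.2 to 21.3 CPM with dTAGV1. Its log2 fold change was -0.25 (SE 0.15; edgeR, Benjamini-Hochberg adjusted p = 0.141). On counts irrespective of strand it was -0.79 and called (edgeR adjusted p = 8.29e-05). AC006435.1, a noncoding gene on the other strand, shares 1065 exonic bases with MNT, which that column does not tell apart. MXD3 (ENSG00000213347; chromosome 5, 177301461 to 177312757, minus strand, protein-coding), which is linked to dividing cells, had 16 to 20 counts with DMSO and 5 to 18 with dTAGV1. Its log2 fold change was -0.65 (SE 0.32; edgeR, Benjamini-Hochberg adjusted p = 0.0892), and without dTAGV1 replicate 1 it was -1.03 and called (edgeR adjusted p = 0.0132). MXD3 shares 926 exonic bases with RAB24 on the same strand, none of them in the last 500 of its longest coding transcript.

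MLX (ENSG00000108788; chromosome 17, 42567068 to 42573239, plus strand, protein-coding) rose slightly. It had 109, 102, 107 and 116 CPM with DMSO and 133, 129, 128 and 119 CPM with dTAGV1, so that the groups did not overlap. The log2 fold change was 0.23 (SE 0.08; edgeR, Benjamini-Hochberg adjusted p = 0.0138), the smallest among the members called. It was not called when libraries were scaled by size alone (0.15; edgeR adjusted p = 0.0951), without a filter (0.21; edgeR adjusted p = 0.0668), or without DMSO replicate 2 (0.20; edgeR adjusted p = 0.0609). On counts irrespective of strand it was 0.01 (edgeR adjusted p = 0.959). PSMC3IP, a recombination factor on the other strand, shares 770 exonic bases with MLX, 345 of them in the last 500 of MLX, which that column does not tell apart.

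**Figure D2:**
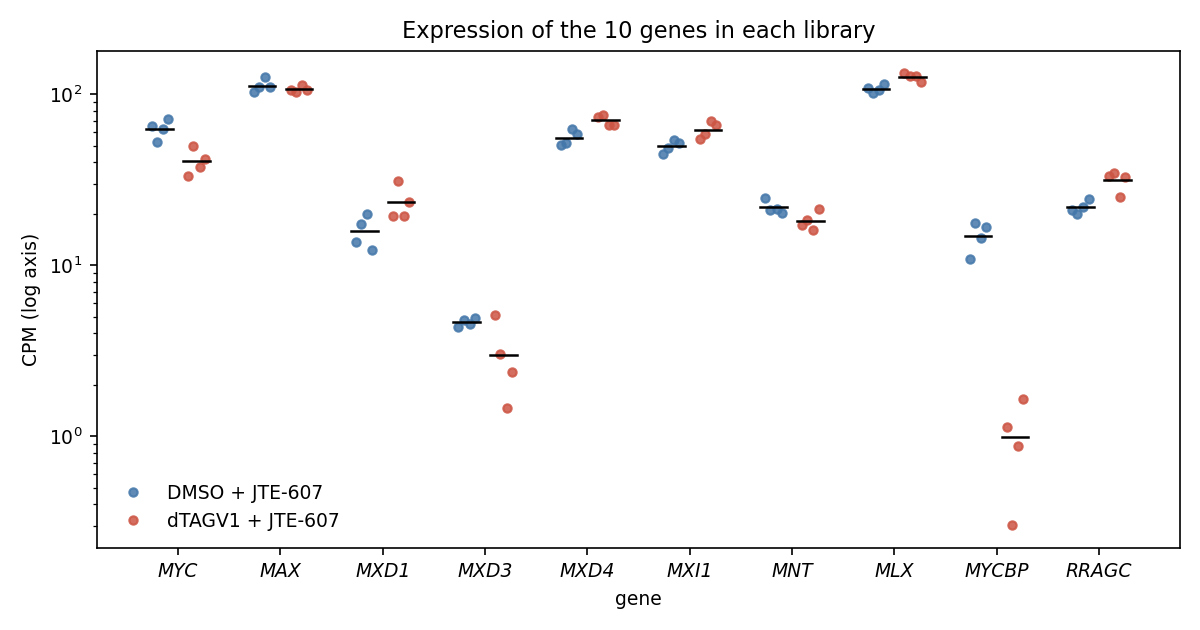
CPM of each gene on a log axis, with 1 point for each of the 4 libraries of a group and a bar at the group mean. MYCBP drops from 10.9 to 17.6 CPM down to 0.302 to 1.66 CPM, MYC is lower with dTAGV1 without overlap, and MAX overlaps between the groups.

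Leaving MYCBP aside, 6 of 9 members were called: MXD1, MXD4, MXI1, MLX and RRAGC were higher and MYC was lower. That is 66.7%, against 57.9% of all 12618 tested genes called in either direction by the same test, and it is no result about the members as a group. In 5 of the 9 the CPM of the groups was fully apart, against 50.9% of all tested genes. The median log2 fold change of the 9 was 0.23, and that of all tested genes was 0.01. The balance within the network can also be read inside each library. MYC had 0.369 to 0.482 counts for each count of the 5 repressors together with DMSO, and 0.194 to 0.266 with dTAGV1, with means of 0.427 ± 0.0583 and 0.227 ± 0.0305 (SD, n = 4 each). Every dTAGV1 library was below every DMSO library in this ratio, which does not depend on the scaling of libraries.

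**Figure D3:**
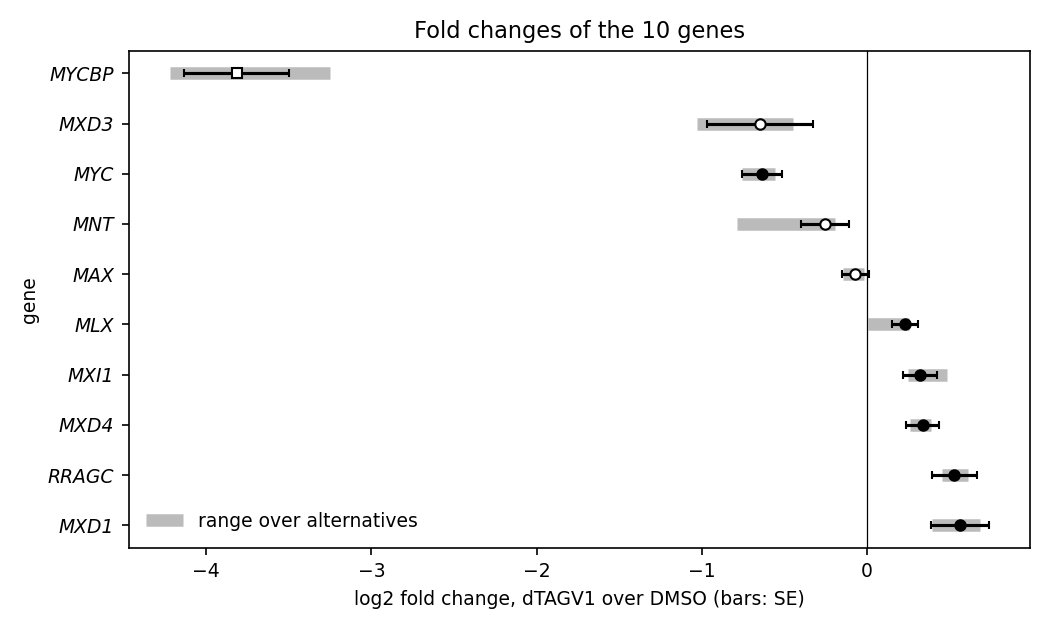
Points are log2 fold changes of dTAGV1 over DMSO with their standard errors, filled where the edgeR adjusted p was under 0.05, and open otherwise (a square for MYCBP, which was not tested). Grey bars run over all alternatives, and those of MLX (0.01 to 0.26) and MNT (-0.79 to -0.19) are wide for the size of their values.

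Since the kit gives a read near the 3′ end of each transcript, levels were compared between genes as CPM without correction for length. Reads in bases that several genes share would go uncounted, so the order is one of counted reads. How many were lost from each gene was not tested. With DMSO the order was MAX, MLX, MYC, MXD4, MXI1, MNT, RRAGC, MXD1, MYCBP and MXD3. MAX and MLX, MYC and MXD4, MXD4 and MXI1, MNT and RRAGC, and MXD1 and MYCBP did not differ beyond their SDs. With dTAGV1, MLX at 127 ± 5.90 CPM had the highest mean and MYC at 40.6 ± 7.14 CPM lay below MXD4 at 70.8 ± 5.09 CPM and MXI1 at 62.4 ± 6.98 CPM (SD, n = 4 each).

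Reads on the opposite strand of the members were counted apart from their sense reads. Where a gene on that strand shares exons with a member, the same read can also enter that gene's sense count. Only 4 members had enough opposite-strand reads to be tested, and 3 of these 4 were called, or 75%, against 48.4% of 3324 genes tested on these counts. Opposite to MLX there were 70, 125, 107 and 100 counts with DMSO and 27, 20, 23 and 45 with dTAGV1. The log2 fold change was -1.83 (SE 0.19; edgeR, Benjamini-Hochberg adjusted p = 2.67e-09), while sense reads of MLX rose. PSMC3IP, which overlaps there, had 555 sense counts with DMSO and 185 with dTAGV1, summed over each group. It fell by 1.47 on the log2 scale (edgeR, Benjamini-Hochberg adjusted p = 2.17e-08). The same reads can enter both counts, so the fall of PSMC3IP is not an independent observation.

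MXI1 and MAX showed the reverse, with more opposite-strand reads upon dTAGV1. Opposite to MXI1 there were 30, 36, 17 and 29 counts with DMSO and 97, 51, 48 and 81 with dTAGV1 (log2 fold change 1.27, SE 0.22; edgeR, Benjamini-Hochberg adjusted p = 1.26e-05). SMNDC1, a splicing factor gene on that strand that lies 3365 bases from MXI1, had a sense log2 fold change of 0.18. AL360182.2, a noncoding gene on that strand that shares 205 exonic bases with MXI1, had 0 sense counts with DMSO and 2 with dTAGV1. Opposite to MAX there were 2, 6, 1 and 2 counts with DMSO and 17, 15, 22 and 19 with dTAGV1 (log2 fold change 2.66, SE 0.43; edgeR, Benjamini-Hochberg adjusted p = 4.66e-06). FNTB, a farnesyltransferase subunit gene that overlaps MAX on that strand without shared exons, rose by 0.37 on the log2 scale. AL139022.1, a noncoding gene on that strand that shares 184 exonic bases with MAX, had 0 sense counts in either group. For MXI1 and MAX, opposite-strand CPM was higher in all dTAGV1 libraries than in all DMSO libraries. Which transcripts these reads came from was not tested.

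Opposite to MXD3, reads outnumbered its own in every library, at 236 to 325 counts with DMSO and 96 to 305 with dTAGV1. They did not pass the test (log2 fold change -0.65, standard error 0.27; edgeR, Benjamini-Hochberg adjusted p = 0.0798), and the groups overlapped. PRELID1, a lipid transfer gene on that strand, shares 384 of the last 500 bases of MXD3. Its own sense counts, which can hold the same reads, summed to 1130 with DMSO and 750 with dTAGV1. RRAGC and MXD4 had 0 opposite-strand counts in all libraries, and MYCBP had 0 to 5.

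**Figure D4:**
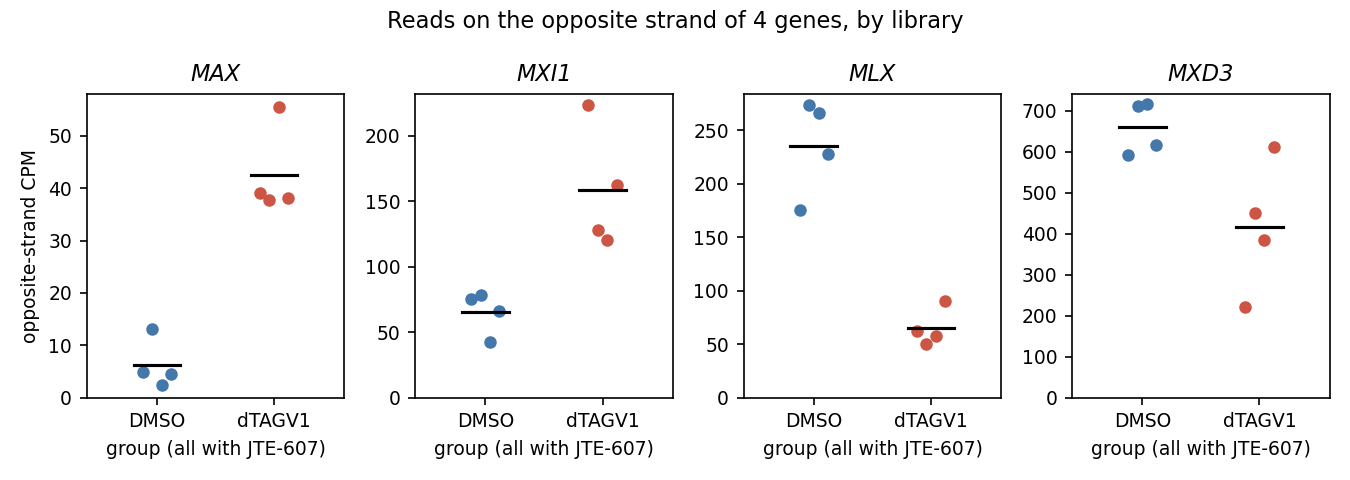
Opposite-strand CPM of MAX, MXI1, MLX and MXD3 in each library (points) with group means (bars), each panel on its own axis from 0. Groups do not overlap for MAX and MXI1, which are higher with dTAGV1, or for MLX, which is lower, and they overlap for MXD3.

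Beyond the members, 7 of 10 related genes of the same protein class were tested, of which 2 rose and 1 fell, against 29.4% and 28.5% of all tested genes. MLXIPL, the glucose-responsive partner of MLX, fell from 28.3 to 15.5 CPM (log2 fold change -0.88; edgeR adjusted p = 2.6e-05). MITF, a lysosomal and pigment cell factor, rose from 1.36 to 6.42 CPM (log2 fold change 2.23), and USF1, which binds the same E-box, had 0.44, a call that was lost in 13 of its 15 alternatives (0.29 to 0.54 over all 15). MLXIP had a log2 fold change of -0.17 and MGA, another MAX partner, one of -0.06, and neither passed (edgeR adjusted p of 0.117 and 0.599). MLXIP was called without dTAGV1 replicate 4 and with library size alone, at -0.24 each (edgeR adjusted p of 0.0429 and 0.0284). MYCL did not pass (0.06), and MYCN and TXNIP are listed at 0 sense counts in all libraries. Whether TXNIP shares bases with another gene in the authors' annotation, which would leave its reads uncounted, was not tested, so its 0 is not read as a lack of expression. ARRDC4, which is with TXNIP a known target of MondoA and MLX, had 7, 3, 3 and 8 counts with DMSO and 37, 27, 63 and 43 with dTAGV1. ARRDC4 rose from 1.35 ± 0.685 to 11.8 ± 4.59 CPM (SD, n = 4 each; log2 fold change 3.10, SE 0.35; edgeR, Benjamini-Hochberg adjusted p = 4.38e-08).

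Of 34 genes known to be induced by MYC, 32 were tested, 19 were lower and 2 higher, where 28.5% of all tested genes were lower and 29.4% higher. Their median log2 fold change was -0.32. PRDX3, a mitochondrial peroxidase, had a log2 fold change of -1.84. TFAP4, a transcription factor that acts in proliferation, had -1.81 and the cap-binding protein EIF4E had -1.08. The nucleolar genes NOP56 and NOLC1 had -0.70 and -0.76, and CAD, the entry enzyme of pyrimidine synthesis, had -0.81. Against this, the transferrin receptor TFRC (0.57) and the lactate transporter SLC16A1 (0.38) rose. The rRNA methyltransferase FBL (0.09), DDX18 (0.07) and BOP1 (0.15) did not pass. LDHA and EIF4A1 did not pass either, with only 231 and 178 counts over all libraries. Whether reads of LDHA and EIF4A1 went uncounted was not tested, so their result is not read as a lack of change.

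All 10 genes known to be repressed by MYC were called, 6 higher and 4 lower, where 57.9% of all tested genes were called, with a median log2 fold change of 0.815. CDKN2B, a CDK inhibitor, rose from 37.8 to 148 CPM (log2 fold change 1.97), and CLU, a secreted chaperone, and GADD45A, a stress protein, rose by 1.36 and 1.05. CEBPA, a differentiation factor, NDRG1, a stress-responsive gene, and GADD45B had log2 fold changes of -1.90, -0.84 and -0.69. Several of these genes also answer to p53 and other stress factors, and the lists were written from general knowledge with earlier results of these data known.

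Among 13 genes that act on the stability of MYC protein, 4 rose, 5 fell and 4 did not pass, with a median of -0.12. Of all tested genes 29.4% were higher and 28.5% lower. FBXW7, the ubiquitin ligase subunit that marks phosphorylated MYC for destruction, rose from 118 to 247 CPM (log2 fold change 1.06). GSK3B, the kinase that prepares MYC for FBXW7, had 0.34, and BTRC, a subunit of another ubiquitin ligase, had 0.45. The mitotic kinases PLK1 and AURKA had -1.28 and -1.14. CIP2A, which protects MYC from a phosphatase, had -0.91, and it was not called without dTAGV1 replicate 1 (-0.89) or 3 (-0.85), or with the replicate number as a block (-0.92), at edgeR adjusted p of 0.062, 0.0542 and 0.0664.

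Of 16 cofactors of MYC or its repressors, 4 rose and 7 fell, with a median of -0.05, against 29.4% higher and 28.5% lower among all tested genes. HDAC1 (0.39) and KAT5 (0.28) were among those that rose, and KAT2A (-0.83), RUVBL1 (-0.74) and the MXD-binding corepressor SIN3A (-0.52) were the lowest of those called. KAT5 lost its call in 10 alternatives.

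Around RRAGC, 28 of 31 genes of the amino acid branch of mTORC1 signalling were tested, 8 rose and 6 fell, with a median of 0.165, and the shares over all tested genes were 29.4% and 28.5%. RRAGD, the close relative of RRAGC, rose from 48.5 to 86.9 CPM (log2 fold change 0.84), while RRAGA (-0.09) and RRAGB (0.23), which encode the GTPases they pair with, did not pass. LAMTOR3, of the lysosomal anchor, and SESN1, a p53-induced leucine sensor, rose by 0.92 and 0.97. NPRL3, an inhibitor of the Rag GTPases, KICS2, which anchors that inhibitor, and RPTOR, the mTORC1 scaffold, had log2 fold changes of -0.77, -0.67 and -0.72. KICS2 was not called without dTAGV1 replicate 1 (-0.49; edgeR adjusted p = 0.0741), and RPTOR was 0.61 on counts irrespective of strand, where it did not pass (edgeR adjusted p = 0.0932). Without dTAGV1 replicate 3, 5 genes of this list were higher instead of 8.

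**Figure D5:**
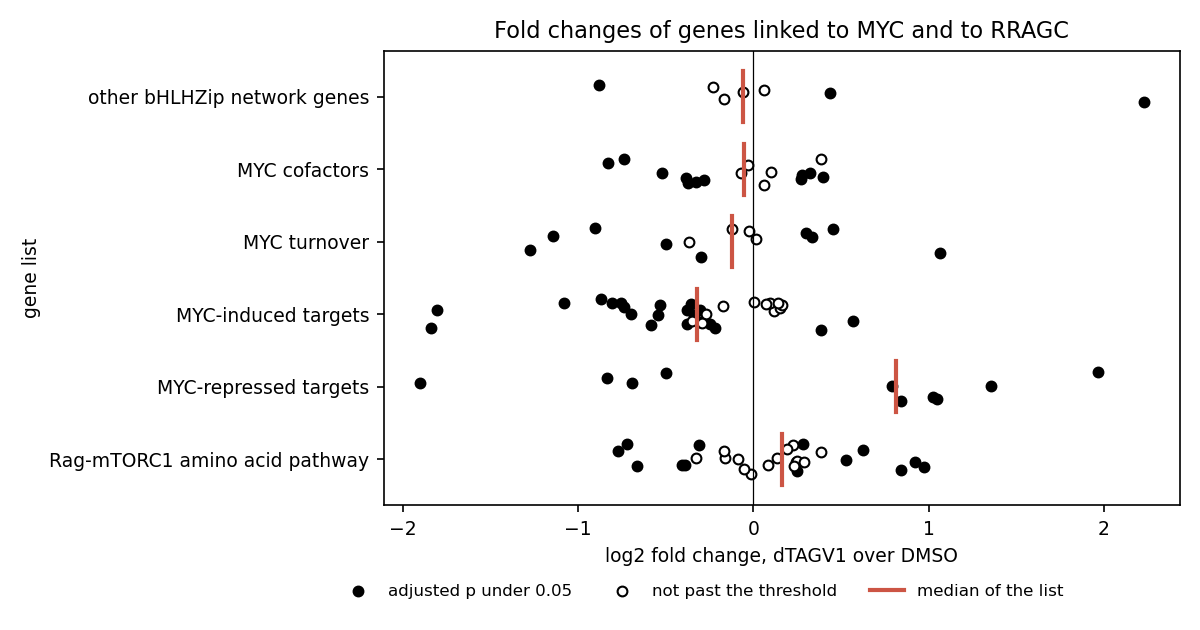
Each point is the log2 fold change of a tested gene in a list, filled where the edgeR adjusted p was under 0.05, and red bars are list medians. Genes induced by MYC lie mostly to the left, with a median of -0.32, and the Rag and mTORC1 genes lie on both sides, with a median of 0.165.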

How the data were processed

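The authors deposited, for each of 8 libraries, raw counts of reads per gene in 3 columns: irrespective of strand, on the sense strand and on the opposite strand. Poly(A) RNA was turned into libraries by the QuantSeq FWD V2 kit (Lexogen), per the labels' protocols. The submitters' processing notes name fastp, STAR, HTSeq and DESeq2 and the build GRCh38, without versions; annotation and the handling of molecular identifiers are not given in the sources used here. Reads given to no gene (56.7% to 62.8% of reads) stayed out of library sizes. Of uniquely mapped reads, 30.1% to 33.7% with DMSO and 35.9% to 37.4% with dTAGV1 lay in no annotated gene on the sense strand. Every dTAGV1 library was above every DMSO library in this share. Its bearing on the gene counts was not tested.

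Sense counts were tested with edgeR 4.0.16 in R 4.3.3 (filterByExpr, TMM scaling, robust quasi-likelihood F test) across 12618 genes, with Benjamini-Hochberg adjustment and a threshold of 0.05. A log2 fold change above 0 means a larger share of the counts in dTAGV1 libraries after TMM scaling. Rises and falls are thus relative to the other genes, and the amount of RNA per cell was not measured. The standard error is the fold change divided by the square root of F. Opposite-strand counts were tested likewise. Their CPM were scaled by the opposite-strand counts of each library (416360 to 506971 in all) and cannot be set against sense CPM. Of 78932 gene IDs, 61481 matched the table of gene names and 57356 matched GENCODE 29, which gave coordinates and gene types; promoter sequences came from RefSeq on GRCh38.p14 and transcript ends from GENCODE 29. This annotation is not stated to be the authors' own.

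Named genes are the members, the genes tested around MYCBP, up to 3 called genes at each end of a list, and MLXIP, MGA, TXNIP and ARRDC4. A gene that this rule names among the cofactors is not reported here. Other list genes (NOP56, NOLC1, CAD, FBL, DDX18, BOP1, LDHA, EIF4A1, MYCL, RRAGA and RRAGB) were chosen after their values were seen. The members and lists were chosen with earlier results of these data known. Alternatives were DESeq2 1.42.0, limma-voom (limma 3.58.1), RLE and library-size scaling, no filter, a mean of at least 100 counts, counts irrespective of strand, a replicate block, and leaving out each library. Tested on simulated data with 200 changed of 12618 genes, the fit found 74.0% of them, or 89.9% of genes moved by a log2 of 1 or more. It made 9 false calls. In the real data 57.9% of genes were called, a far larger share than was changed in the simulation. These rates therefore need not hold for the real comparison. Pairs of replicates differed by more than sampling noise (chi-square over degrees of freedom 1.82 to 5.09). Figures used matplotlib 3.10.9.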

Additional observations from a re-analysis of the deposited data

Results flagged for a closer look

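Of 58 groups of 4 values looked at for a library far from the other 3, 3 had one, and chance gives about 1 in 20. Opposite-strand reads of MAX were highest in dTAGV1 replicate 3, at 55.4 CPM, with the other 3 dTAGV1 libraries at 37.7 to 39.2 CPM. MLXIP was highest among dTAGV1 libraries in replicate 4, at 65.8 CPM. SF3A3 was lowest among DMSO libraries in replicate 1, at 88.0 CPM.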

How the results depend on the processing

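Over 1248 alternative values of 84 results, 1176 kept the call and direction, or, for a count, a value within 1.5 times. The calls of MYC, MXD4 and RRAGC held in every alternative that was run, with log2 fold changes of -0.75 to -0.56, 0.26 to 0.39 and 0.46 to 0.61, and MYCBP ranged from -4.22 to -3.25. At a mean of at least 100 counts, which tests fewer genes, 4120 genes were called, 2131 higher and 1989 lower; 3 members were higher, 0 related protein class genes were higher and 0 lower, 0 MondoA and MLX targets were higher, and 2 Rag and mTORC1 genes were lower. On counts irrespective of strand 2 members were lower, and RPTOR reversed to 0.61 (the cause was not tested). Of the related class 1 gene was higher under DESeq2, limma-voom, RLE scaling, library size alone, no filter, counts irrespective of strand and the replicate block. Of that class 3 were lower with library size alone, and 2 without a filter and with the block; Rag and mTORC1 genes that were higher numbered 5 with library size alone and 5 without a filter (the causes were not tested). Leaving out 1 library at a time gave 6861 to 7232 calls, 1 to 2 members lower, 1 to 2 of the class higher and 1 to 2 lower, and 5 to 8 Rag and mTORC1 genes higher. Library size alone moved the share of calls that were higher from 50.8% to 43.8%. Without a filter, opposite-strand reads of MXD3 were called (-0.70; edgeR adjusted p = 1.44e-06).

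Same-numbered libraries did not deviate together (r of -0.0176 to 0.131, 2 of 4 DMSO libraries correlating best with their own number), so the numbers were not taken as pairs. With the replicate number as a block, 7434 genes were called (3769 higher, 3665 lower), 7258 of them shared with the fit without it. Counts limit the precision of MXD3 (5 to 20 a library), of MYCBP with dTAGV1 (1 to 7) and of the opposite-strand reads of MAX with DMSO (1 to 6).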

Other observations

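Across 9322 other genes that averaged 10 CPM or more, the pattern over the 8 libraries most like that of MYCBP in log2 CPM was that of MTHFD2, a mitochondrial folate enzyme (Pearson's r = 0.998, log2 fold change -0.89). CIAO2A, which acts in iron-sulfur cluster assembly, and POLD3, a subunit of DNA polymerase delta, followed at 0.995 each, with log2 fold changes of -1.01 each. These correlations span both groups, were not computed within a group, and are given as a description.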
